A study of Gallus gallus with 12 samples.

Results

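NEUROG2AQ was compared with control in GFP-positive cells sorted from chick neural tubes 6 hours after electroporation, on 4 arrays a group and 8 of the 12 arrays of the series. The arrays were chosen by the titles that name the electroporated plasmid, and only probe sets with identifiers of chicken transcripts were read. All embryos were electroporated in the egg at stages HH10 to HH11, after about 40 hours of incubation. The design text gives 11 to 15 somites and the growth protocol 13 to 15. The NEUROG2AQ cells received pCIGNEUROG2AQ-GFP and the control cells a vector with GFP alone, which the design text spells pGIG-GFP. The NEUROG2 cells, used below for side-by-side values, received pCIGNEUROG2-GFP. Every array is a biological replicate that pools the neural tubes of 20 embryos, and 50 ng of total RNA was labelled. No untreated embryos were analysed here, so GFP, the electroporation and the sort are shared by all groups. The labels name no promoter, and give of NEUROG2AQ only the name. In other work that name denotes NEUROG2 altered in the basic region, the part of the protein that contacts DNA.

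NEUROG2 is a proneural transcription factor of the basic helix-loop-helix family. Paired with E proteins it binds E-box sequences and switches on genes of neuronal differentiation, among them the Notch ligand DLL1, through which a cell that starts to differentiate keeps its neighbours in the progenitor state. A form that no longer binds DNA may still pair with partners, so it is used as a control for the effects of the protein that need DNA binding.

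At 6 hours few transcripts separated the NEUROG2AQ cells from the control cells. HSPB9 and HSPA2, both heat shock proteins, were higher with NEUROG2AQ. Of the neuronal genes read, 5 were lower. DLL1, GADD45G, HES6 and the NEUROG2 probe set are 4 of 34 genes of the early neuronal cascade. TAGLN3 is 1 of 51 genes of postmitotic neurons, and 0 of 27 neuronal subtype factors passed. The lists were written with earlier results of these data known, so these counts are a description. In limma, 25 probe sets of the 37693 tested reached an adjusted p under 0.05 (0.0663%), 3 higher (0.00796%) and 22 lower (0.0584%). An unadjusted p under 0.05 was reached by 2596 probe sets, 986 higher and 1610 lower. Among 37693 tests many reach it with no difference between groups, so these are not read as changed transcripts. With each gene read at its probe set of highest mean, 14 of 13008 genes passed (0.108%), 2 higher (0.0154%) and 12 lower (0.0923%). The 4 NEUROG2AQ arrays lay all on one side of the 4 control arrays for each of the 25; over all probe sets they lay all below for 2.28% and all above for 1.7%, and over all genes for 2.7% and 1.94%. Of the 25 probe sets, 18 have a symbol and stand for 15 genes, and 7 have none. For comparison, 2515 probe sets separated NEUROG2 from the same control arrays (6.67%), 1242 of them higher (3.3%), and 2286 separated NEUROG2AQ from NEUROG2 directly (6.06%), of which 901 were higher (2.39%) and 1385 lower (3.67%) with NEUROG2AQ.

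**Figure D1:**
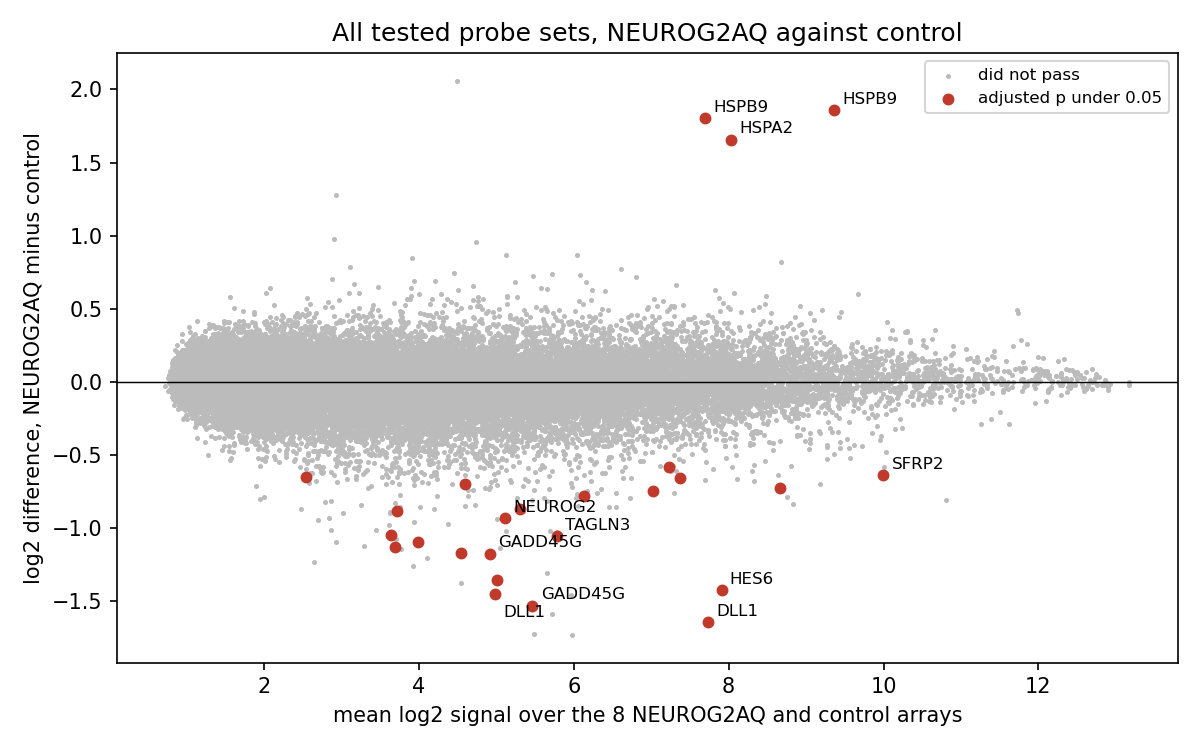
Log2 difference of NEUROG2AQ minus control (vertical axis) against the mean log2 signal over the 8 arrays (horizontal axis) for the 37693 tested probe sets. Red points are the 25 probe sets with an adjusted p under 0.05 in limma, 3 of them above 0 and 22 below it.

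The count depended on single arrays. It was 13, 14, 10 and 11 without NEUROG2AQ replicate 1, 2, 3 and 4, 11 without control replicate 2, and 20 to 30 without any other control array. The split moved too, with 5 higher and 8 lower without NEUROG2AQ replicate 1 (38.5% higher, against 12% with all arrays) and 3 higher and 7 lower without NEUROG2AQ replicate 3. It was 3 higher and 11 lower without NEUROG2AQ replicate 2, and 3 higher and 8 lower without NEUROG2AQ replicate 4 or control replicate 2. The count was 8 when only the arrays of these 2 groups were fitted. The calls of TAGLN3, NEUROG2, JAG1, NOTCH1, SFRP2, AMOTL2, SULF1, NIN, GFRA1 and NUAK1 were lost in that fit, as was that of a second GADD45G probe set. The calls of HSPB9, HSPA2, HES6, DLL1 and GADD45G, and that of 1 probe set without a symbol, were kept whichever of the 8 NEUROG2AQ and control arrays was left out. No NEUROG2 array was left out in this comparison.

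The arrays differed in ways the groups do not explain. On the second principal component control replicate 1 and NEUROG2AQ replicate 4 lay at 52.3 and 30.2, control replicate 3 at -30.9 and the others between -16.5 and 4.11. Control replicate 1 had a mean log2 signal over 24 somite markers of 3.80, against 2.77 to 3.05 in NEUROG2AQ arrays and 2.94 to 3.25 in the other controls. RNA integrity was read from the array's own control probes as the 3' minus 5' log2 signal, averaged over actin and EF1A, where a larger value means more degraded RNA. It was 1.95 ± 0.29 in NEUROG2AQ and 1.80 ± 0.12 in control arrays (SD, n = 4 each; two-sided exact permutation p = 0.4, with 0.0286 the smallest possible). For GAPDH it was 0.28 ± 0.11 and 0.35 ± 0.08 in the same groups (exact permutation p = 0.343). Both give 0.4 after adjustment over these 2 tests. With control replicate 1 and NEUROG2AQ replicate 4 both left out, 21 probe sets passed, and with the 3'/5' difference as a covariate 31 passed. No scan date or other batch label was used here.

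The transfected gene came first as a check of the labels. The NEUROG2 probe set had log2 signals of 4.66, 4.77, 4.56 and 4.57 in NEUROG2AQ arrays, 4.10, 3.92, 3.69 and 3.89 in NEUROG2 arrays, and 6.07, 5.61, 5.28 and 5.33 in control arrays. All arrays of both expression plasmids lay below all control arrays, and the NEUROG2 arrays were the lowest. NEUROG2AQ minus control was -0.93 ± 0.15 on the log2 scale (SE, adjusted p = 0.0383), or 1.91-fold lower, and NEUROG2AQ minus NEUROG2 was 0.74 ± 0.15 (adjusted p = 0.00653). The labels state neither the species of the insert nor the part of the transcript that the probes match, so this probe set does not check the labels. It showed no rise with either plasmid, and NEUROG2 minus control was -1.67 ± 0.15 (SE, adjusted p = 4.44e-06). Which transcript it reads, that of the plasmid or of the embryo's own gene, was not tested. The call of NEUROG2AQ against control was lost without control replicate 2 (adjusted p = 0.138) or without any of the NEUROG2AQ arrays. It was also lost with the 3'/5' covariate (adjusted p = 0.0552) and without control replicate 1 and NEUROG2AQ replicate 4 together (adjusted p = 0.0758). Of the 57 reporter probe sets of the array, 1 with no target named here, singled out after its values were seen, read 4.51 to 5.12 in NEUROG2AQ, 5.08 to 5.51 in NEUROG2 and 6.99 to 7.56 in control arrays. It set the control arrays apart, while the arrays of the 2 expression plasmids overlapped.

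DLL1 had the most negative difference of the 14 genes. Its brightest probe set read 6.89, 7.26, 6.84 and 6.64 in NEUROG2AQ arrays and 8.43, 8.76, 8.48 and 8.52 in control arrays. Every NEUROG2AQ array lay more than 1 log2 unit below the lowest control array. The difference was -1.64 ± 0.15 (SE, 95% interval -1.96 to -1.32), or 3.12-fold lower with NEUROG2AQ (adjusted p = 1.23e-04). The second probe set fell by 1.45 ± 0.16 (adjusted p = 8.57e-04). In NEUROG2 arrays the brightest probe set averaged 10.21 ± 0.28 (SD, n = 4), which put the 2 plasmids on opposite sides of control. NEUROG2AQ was 9.88-fold lower than NEUROG2 in the direct test (adjusted p = 2.1e-09).

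HES6, a member of the HES family that promotes neuronal differentiation instead of blocking it, showed the same order of groups. Its log2 signals were 7.03, 7.18, 7.29 and 7.28 in NEUROG2AQ arrays and 8.78, 8.67, 8.64 and 8.38 in control arrays. No NEUROG2AQ array came within 1 log2 unit of a control array. The difference was -1.42 ± 0.13 (SE, adjusted p = 1.13e-04), or 2.68-fold lower. NEUROG2 arrays averaged 10.92 ± 0.24, and NEUROG2AQ was 13.2-fold lower than NEUROG2 (adjusted p = 2.17e-10).

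GADD45G, a growth arrest protein, followed another order of groups. It read 4.90, 4.93, 4.47 and 4.50 in NEUROG2AQ arrays, 6.10, 6.27, 6.35 and 6.42 in NEUROG2 arrays and 5.91, 6.21, 6.56 and 6.24 in control arrays. NEUROG2AQ arrays lay below all others, while NEUROG2 and control arrays overlapped. NEUROG2AQ minus control was -1.53 ± 0.15 (SE, adjusted p = 1.75e-04), or 2.89-fold lower, and NEUROG2AQ was 3-fold lower than NEUROG2 (adjusted p = 3.74e-06). NEUROG2 minus control was 0.05, with a 95% interval of -0.26 to 0.36 (adjusted p = 0.914). A second probe set of GADD45G gave -1.17 ± 0.17 for NEUROG2AQ minus control (adjusted p = 0.0143). That second call was lost without NEUROG2AQ replicate 2, 3 or 4 or control replicate 2 (adjusted p up to 0.0708).

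TAGLN3, an actin-binding protein of the transgelin family found in neurons, read 5.04, 5.29, 5.07 and 5.62 in NEUROG2AQ arrays and 6.38, 6.55, 6.22 and 6.09 in control arrays. The groups did not overlap, and NEUROG2AQ replicate 4 was the closest to the controls. The difference was -1.06 ± 0.15 (SE, adjusted p = 0.0161), or 2.08-fold lower. In NEUROG2 arrays TAGLN3 averaged 9.58 ± 0.25, so the direct difference between the plasmids reached 20-fold (adjusted p = 2.17e-10). The call against control was lost without NEUROG2AQ replicate 1, 2 or 3 or control replicate 2 (adjusted p up to 0.0783). In bulk samples, fewer cells of a type and less RNA per cell cannot be told apart, which holds for each of these genes.

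**Figure D2:**
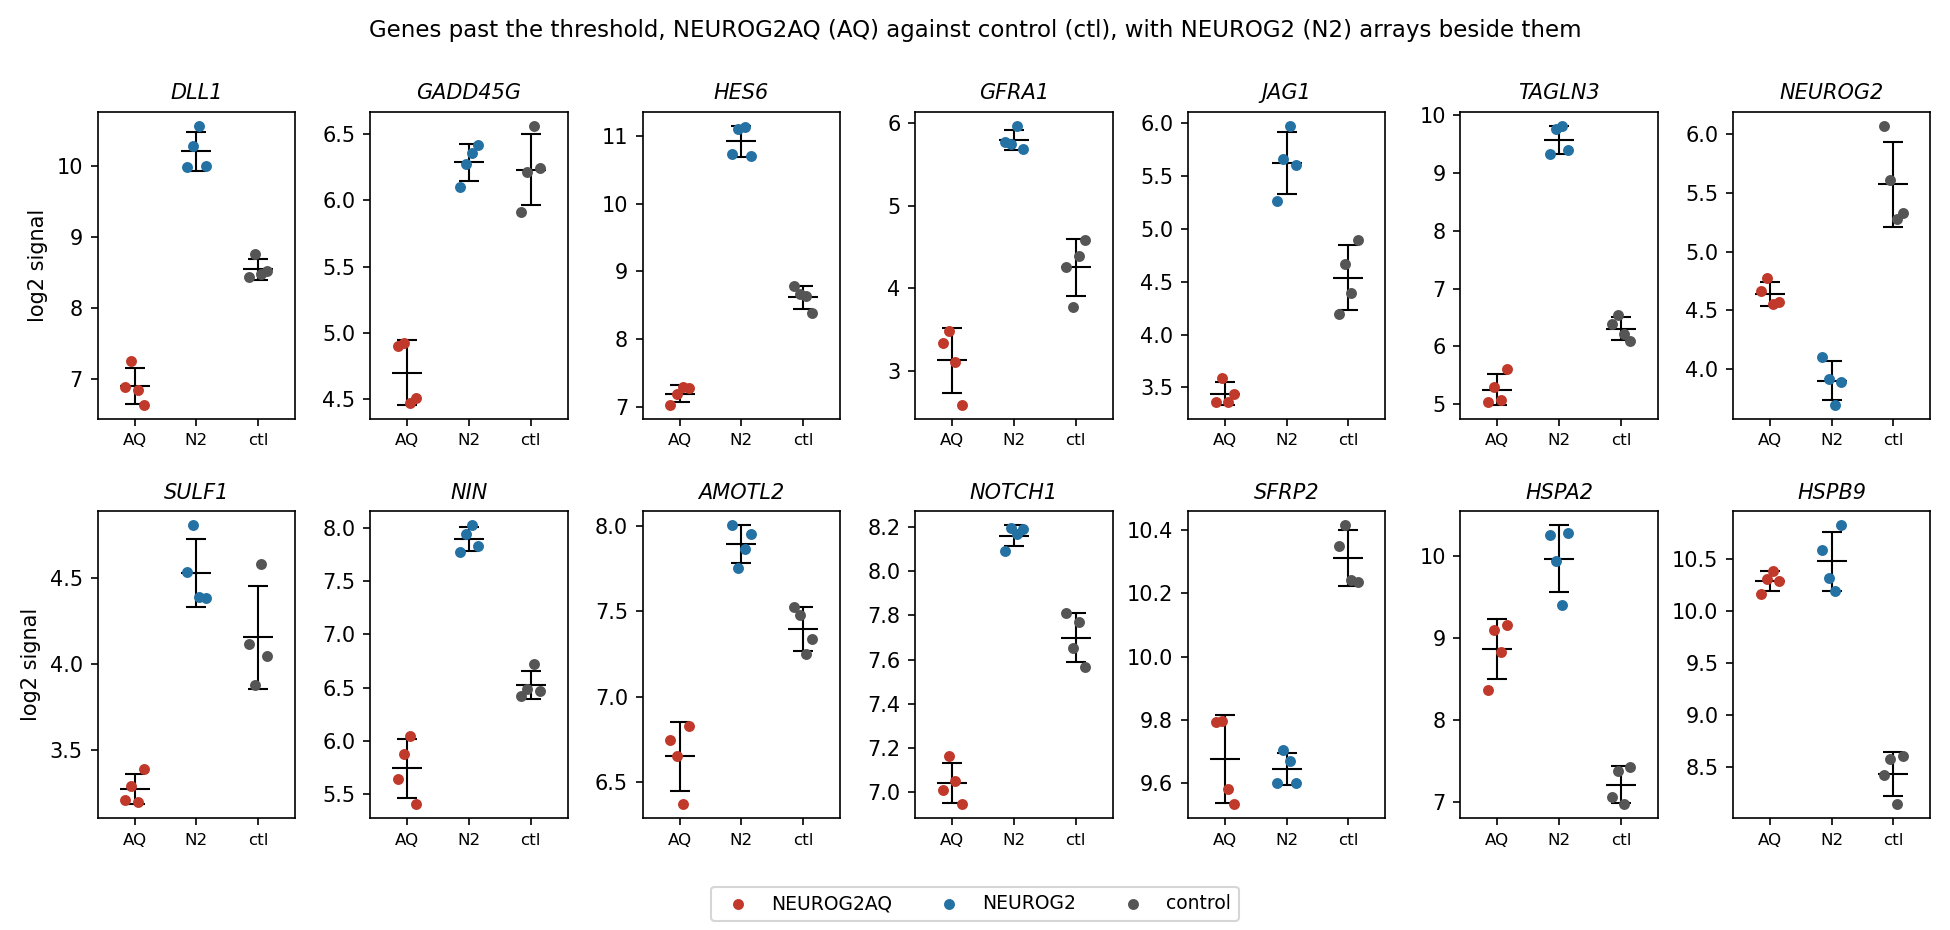
Log2 signal of the 14 genes past the threshold in each NEUROG2AQ (red), NEUROG2 (blue) and control (grey) array; lines are group means and bars 1 SD, n = 4, with a separate vertical axis for each gene. NEUROG2AQ arrays lie below control arrays for 12 genes and above them for HSPA2 and HSPB9.

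The gene lists here and below were written with earlier results of these data known, so their counts are a description. Of the 31 measured genes of the Notch pathway, 4 were lower and 0 higher with NEUROG2AQ, beside 0.0923% of all genes lower. The median difference of the list was -0.12, against 0.01 over all genes. DLL1 and HES6, described above, belong to it. JAG1, a second Notch ligand, read 3.37, 3.59, 3.37 and 3.44 in NEUROG2AQ arrays and 4.20, 4.67, 4.39 and 4.90 in control arrays. All NEUROG2AQ arrays were below all controls, at signals under 5 in both groups. JAG1 was 2.14-fold lower with NEUROG2AQ (log2 difference -1.10 ± 0.16, SE, adjusted p = 0.0161). The JAG1 call was lost without NEUROG2AQ replicate 1, 3 or 4 or control replicate 2 (adjusted p up to 0.0821), and the other 2 probe sets of JAG1, with group means between 1.55 and 2.12 in NEUROG2AQ and control arrays, did not pass.

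NOTCH1, the receptor, read 7.01, 7.16, 7.05 and 6.95 in NEUROG2AQ arrays and 7.81, 7.65, 7.77 and 7.57 in control arrays. Here the groups were narrow and apart, with NEUROG2 arrays above both at 8.16 ± 0.05. The difference from control was -0.66 ± 0.09 (SE, adjusted p = 0.014), or 1.58-fold lower. It was lost without NEUROG2AQ replicate 1, 3 or 4 (adjusted p up to 0.056), and 4 dimmer NOTCH1 probe sets did not pass.

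The other measured Notch genes did not pass. LFNG, a glycosyltransferase that modifies Notch receptors, averaged 9.71 ± 0.07 in NEUROG2AQ and 10.29 ± 0.23 in control arrays without overlap (log2 difference -0.58 ± 0.11, SE, adjusted p = 0.0778). HES5, a target of Notch signalling that represses proneural genes, read 11.29, 11.27, 11.00 and 10.91 in NEUROG2AQ arrays and 11.12, 11.48, 11.68 and 11.34 in control arrays. The groups of HES5 overlapped, with a difference of -0.29 and a 95% interval of -0.62 to 0.04 (adjusted p = 0.787).

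To see which neuronal genes of the control cells were lower, 3 lists were read together: 34 measured genes of the early neuronal cascade, 51 of postmitotic neurons and 27 neuronal subtype factors. Of these 112 genes, 5 were lower, 0 higher and 107 did not pass. A share of 4.46% passed, beside 0.108% of all genes, but these lists too were written with earlier results of these data known. All 4 NEUROG2AQ arrays lay below all 4 control arrays for 13 of the 112 (11.6%), beside 2.7% of all genes. They lay all above for 4 (3.57%), beside 1.94% of all genes. The 5 were DLL1, GADD45G, HES6 and NEUROG2 of the early cascade and TAGLN3 of the postmitotic list. HES6 and DLL1 also stand in the Notch list, and GADD45G is the 1 gene that passed among 26 antiproliferative genes.

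As a description, the neuronal genes were also read by signal, at a limit set after their values were seen. Where the mean of both group means was at least 5 on the log2 scale, 32 genes remained, among them the 5 that passed, and 23 of the 32 differences were negative (71.9%), with a median of -0.17. Over all 6070 genes with such signal 50.3% were negative, 0.181% passed and the median was 0.00. All 4 NEUROG2AQ arrays lay below all 4 control arrays for 11 of the 32 genes, and for 3.82% of the 6070. They lay all above for 0 of the 32 and for 1.63% of the 6070. GADD45G, NEUROG2 and NHLH1 averaged below 5 with NEUROG2AQ and reached the limit through their control arrays, which favours low values with NEUROG2AQ among the 32, so these counts support nothing further. Over all 112 genes 59 differences were negative and the median was -0.01. Of the 80 dimmer neuronal genes 0 passed, 36 differences were negative and the median was 0.02. The NEUROG2AQ arrays lay all below control for 2 of the 80 and all above for 4.

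Besides the 5 genes that passed, 6 expressed neuronal genes had groups apart without passing. That count carries the limits given for the 32 genes, and over all 6070 genes with such signal 3.82% lay all below. NHLH1 is 1 of the genes that reached the signal limit through their control arrays. NEUROG1, the sister proneural factor, averaged 5.99 ± 0.29 in NEUROG2AQ and 6.72 ± 0.16 in control arrays (SD, n = 4; log2 difference -0.73, adjusted p = 0.276). NHLH1, a helix-loop-helix factor of newborn neurons, read 5.07, 5.27, 4.75 and 4.89 in NEUROG2AQ arrays and 5.76, 5.36, 5.30 and 5.32 in control arrays (log2 difference -0.44, adjusted p = 0.591). NEFM, the medium neurofilament subunit, gave -0.42 (adjusted p = 0.385), the antiproliferative gene BTG2 -0.42 (adjusted p = 0.291) and the chemokine receptor CXCR4 -0.52 (adjusted p = 0.264). LFNG, given above, is the sixth. CXCR4 also stands in the list of endoderm and lateral plate markers. With NEUROG2, CXCR4 was lower than in control (log2 difference -1.38, adjusted p = 5.58e-06), while NHLH1, NEFM and BTG2 were higher. NEUROG1 and LFNG did not pass between NEUROG2 and control (adjusted p = 0.209 and 0.66).

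Apart from TAGLN3, the 51 genes of postmitotic neurons did not pass. The median of that list was 0.02, with 23 of 51 differences negative, and that of the subtype factors 0.03, with 11 of 27. The early cascade list had a median of -0.16, with 25 of 34 differences negative. TUBB3, a tubulin of neurons, read 6.50, 6.26, 6.40 and 6.48 in NEUROG2AQ arrays and 6.62, 6.07, 5.89 and 5.95 in control arrays, with overlap (log2 difference 0.28, adjusted p = 0.796). ELAVL4, a neuronal RNA-binding protein, averaged 6.01 ± 0.16 in NEUROG2AQ and 6.29 ± 0.18 in control arrays (log2 difference -0.28, adjusted p = 0.653). DCX, a microtubule-associated protein of young neurons, differed by -0.14 ± 0.15 (SE, adjusted p = 0.922). NEFL, ATOH7, NEUROD1, NEUROD4 and STMN2 had group means below 5 in NEUROG2AQ and control arrays alike, and their differences lay between -0.10 and 0.25 (adjusted p at least 0.881). ATOH7, a factor of retinal ganglion cell formation, averaged 1.13 with NEUROG2AQ, 5.01 with NEUROG2 and 1.19 in control arrays, and was lower with NEUROG2AQ than with NEUROG2 (adjusted p = 9.86e-10). Its level with NEUROG2AQ lay below the array medians of 2.81 to 2.90, so no fold is given. NEUROG2AQ minus control was -0.05 for ATOH7, with a 95% interval of -0.40 to 0.29.

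**Figure D3:**
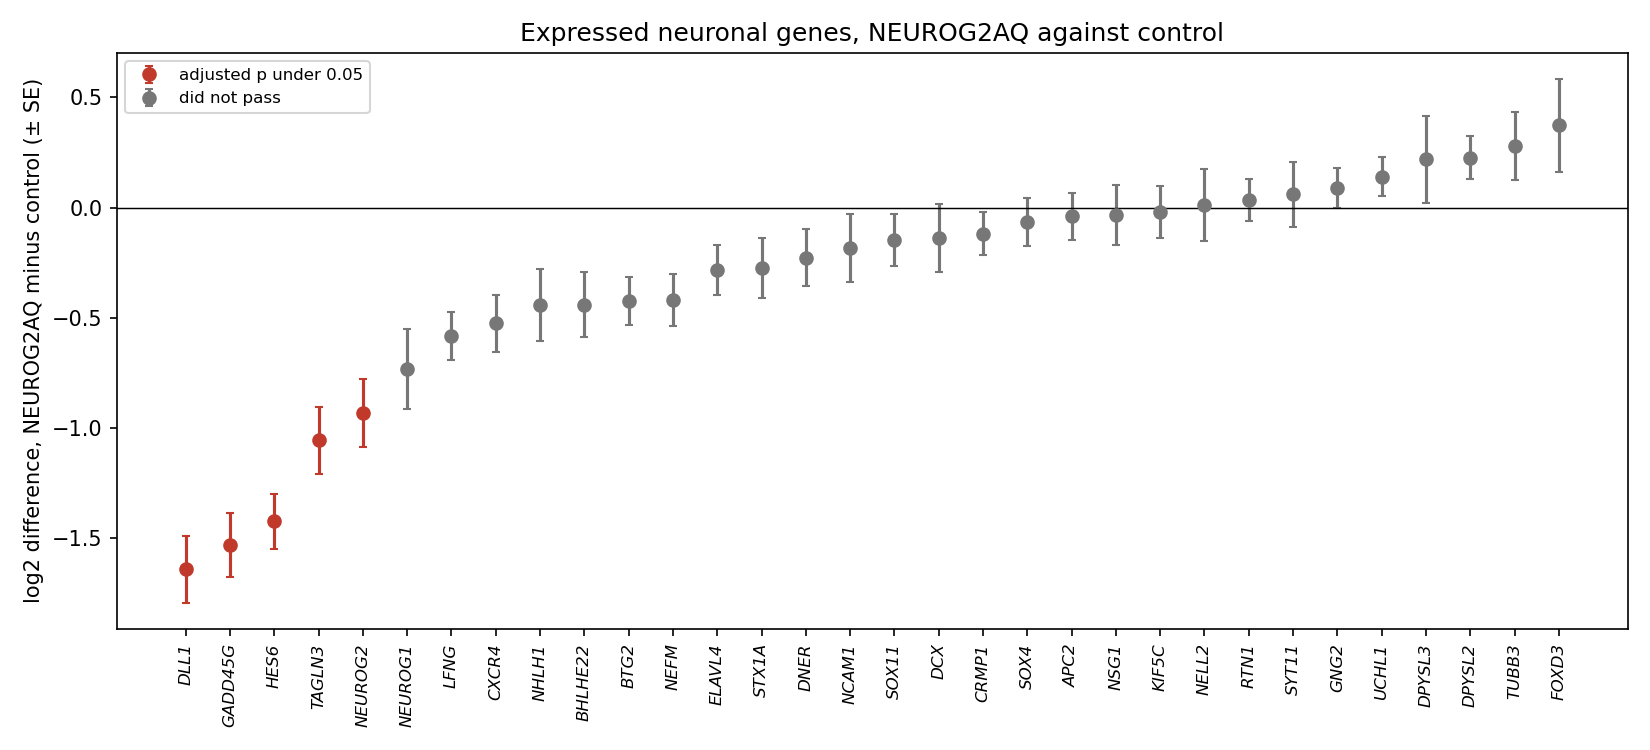
Log2 difference of NEUROG2AQ minus control with SE for the 32 neuronal genes whose mean signal over both groups was at least 5. The 5 genes in red passed, from DLL1 at -1.64 to NEUROG2 at -0.93, and the other 27 did not.

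The remaining genes that fell have varied roles. GFRA1, a co-receptor for the neurotrophic factor GDNF, read 3.33, 3.48, 3.10 and 2.59 in NEUROG2AQ arrays and 4.26, 3.78, 4.39 and 4.59 in control arrays. The groups were apart by the gap between NEUROG2AQ replicate 2 and control replicate 2, both at low signal. It was 2.18-fold lower (log2 difference -1.13 ± 0.19, SE, adjusted p = 0.0396), and the call was lost without NEUROG2AQ replicate 1, 3 or 4 or control replicate 1, 3 or 4 (adjusted p up to 0.124).

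NIN, a protein that anchors microtubules at the centrosome, read 5.65, 5.88, 6.05 and 5.41 in NEUROG2AQ arrays and 6.42, 6.49, 6.72 and 6.47 in control arrays. The groups did not overlap, and NEUROG2 arrays were above both at 7.89 ± 0.11. NIN was 1.72-fold lower than in control (log2 difference -0.78 ± 0.13, SE, adjusted p = 0.0396), and its call held only without NEUROG2AQ replicate 3 or control replicate 1 (otherwise adjusted p up to 0.144). None of the other 4 probe sets of NIN passed, the brightest of them at -0.22 (adjusted p = 0.85).

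AMOTL2, an angiomotin family member that binds YAP, read 6.74, 6.65, 6.37 and 6.83 in NEUROG2AQ arrays and 7.53, 7.48, 7.25 and 7.34 in control arrays. All NEUROG2AQ arrays lay below all controls, by a difference of -0.75 ± 0.11 (SE, adjusted p = 0.0226). The call was lost without NEUROG2AQ replicate 1, 2 or 3 or control replicate 2 or 4 (adjusted p up to 0.103), and the other 2 probe sets of AMOTL2 did not pass.

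SULF1, a secreted sulfatase that edits heparan sulfate, read 3.21, 3.29, 3.20 and 3.39 in NEUROG2AQ arrays and 4.12, 3.88, 4.58 and 4.05 in control arrays. The NEUROG2AQ arrays were tight and all below the controls, and the difference was -0.88 ± 0.14 (SE, adjusted p = 0.0321). It was lost without any of the NEUROG2AQ arrays or control replicate 4 (adjusted p up to 0.114), and the other 6 probe sets of SULF1, with means under 3.28 in NEUROG2AQ and control arrays, did not pass. NUAK1, a kinase related to AMPK, passed on a probe set that is not its brightest, at -0.59 ± 0.10 (adjusted p = 0.0447). The brightest NUAK1 probe set gave -0.58 ± 0.11 (adjusted p = 0.074), and without any single array the first call was lost (adjusted p 0.0638 to 0.183).

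SFRP2, a secreted antagonist of WNT ligands that marks neural progenitors, was the brightest gene to fall. It read 9.79, 9.80, 9.58 and 9.53 in NEUROG2AQ arrays, 9.60, 9.70, 9.67 and 9.60 in NEUROG2 arrays and 10.35, 10.42, 10.24 and 10.24 in control arrays. Both plasmids lay below all controls and overlapped each other. NEUROG2AQ minus control was -0.64 ± 0.10 (SE, adjusted p = 0.02), and NEUROG2 minus control -0.67 ± 0.10 (adjusted p = 3.18e-04). The direct difference was 0.03, with a 95% interval of -0.17 to 0.23 (adjusted p = 0.929). The call of NEUROG2AQ against control was lost without NEUROG2AQ replicate 3 or 4 or control replicate 2 (adjusted p up to 0.103).

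The 7 called probe sets without a symbol here were all lower, by -1.36 to -0.65. The most negative of them read 4.19, 4.34, 4.40 and 4.42 in NEUROG2AQ arrays, 8.23, 8.20, 8.34 and 8.09 in NEUROG2 arrays and 5.63, 6.03, 5.68 and 5.42 in control arrays. The 3 groups were fully apart, in the order seen for DLL1 and HES6. NEUROG2AQ was 2.56-fold lower than control (adjusted p = 1.13e-04) and 14.7-fold lower than NEUROG2 (adjusted p = 1.47e-10). All 7 were also lower than in NEUROG2 arrays, beside 3.67% of all probe sets. They were chosen by the same NEUROG2AQ arrays, which favours a lower value there, so that count is a description. With NEUROG2, 3 of them were higher than in control, beside 3.3% of all probe sets. The mean signal over NEUROG2AQ and control arrays was below 5 for 4 of the 7.

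HSPB9 and HSPA2 were the genes that rose. HSPB9, a small heat shock protein, read 10.16, 10.31, 10.39 and 10.29 in NEUROG2AQ arrays, 10.59, 10.31, 10.19 and 10.83 in NEUROG2 arrays and 8.42, 8.57, 8.14 and 8.60 in control arrays. Both plasmids lay above all controls and overlapped each other. With NEUROG2AQ it was 3.62-fold higher than in control (log2 difference 1.86 ± 0.14, SE, adjusted p = 4.6e-05), the smallest adjusted p of the comparison, and a second probe set rose by 1.81 ± 0.15 (adjusted p = 6.85e-05). The direct difference between NEUROG2AQ and NEUROG2 was -0.19, with a 95% interval of -0.49 to 0.11 (adjusted p = 0.583).

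HSPA2, a chaperone of the HSP70 family, read 8.36, 9.10, 8.83 and 9.15 in NEUROG2AQ arrays, 10.25, 9.94, 9.40 and 10.28 in NEUROG2 arrays and 7.06, 7.38, 6.97 and 7.42 in control arrays. The 3 groups did not overlap, with NEUROG2AQ between the others. It was 3.15-fold higher than in control (log2 difference 1.66 ± 0.20, SE, adjusted p = 0.00347) and 2.15-fold lower than with NEUROG2 (adjusted p = 0.00286).

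Among 42 measured stress, immediate early and p53 genes HSPA2 alone passed (2.38%), beside 0.108% of all genes. Of the 42 differences 22 were negative, where 47.9% of all genes were negative, and the median was -0.01. HSPB9 is not in that list. The following genes of that list were singled out after their values were seen. CHAC1, an enzyme that degrades glutathione in the unfolded protein response, had the most positive difference of the list and read 4.53, 6.15, 5.01 and 6.38 in NEUROG2AQ arrays and 3.77, 3.56, 2.98 and 3.54 in control arrays. The groups did not overlap but NEUROG2AQ arrays spanned almost 2 log2 units, and the difference of 2.06 ± 0.53 (SE) did not pass (adjusted p = 0.302). The chaperones HSPA8 and HSP90AA1 gave 0.49 ± 0.09 (SE, adjusted p = 0.0903) and 0.47 ± 0.11 (adjusted p = 0.203), each without overlap. ATF3, a stress-induced transcription factor, gave 0.79 ± 0.16 (SE, adjusted p = 0.0968). CCN2 had the most negative difference of the list, at -0.79 ± 0.15 without overlap (SE, adjusted p = 0.0903).

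**Figure D4:**
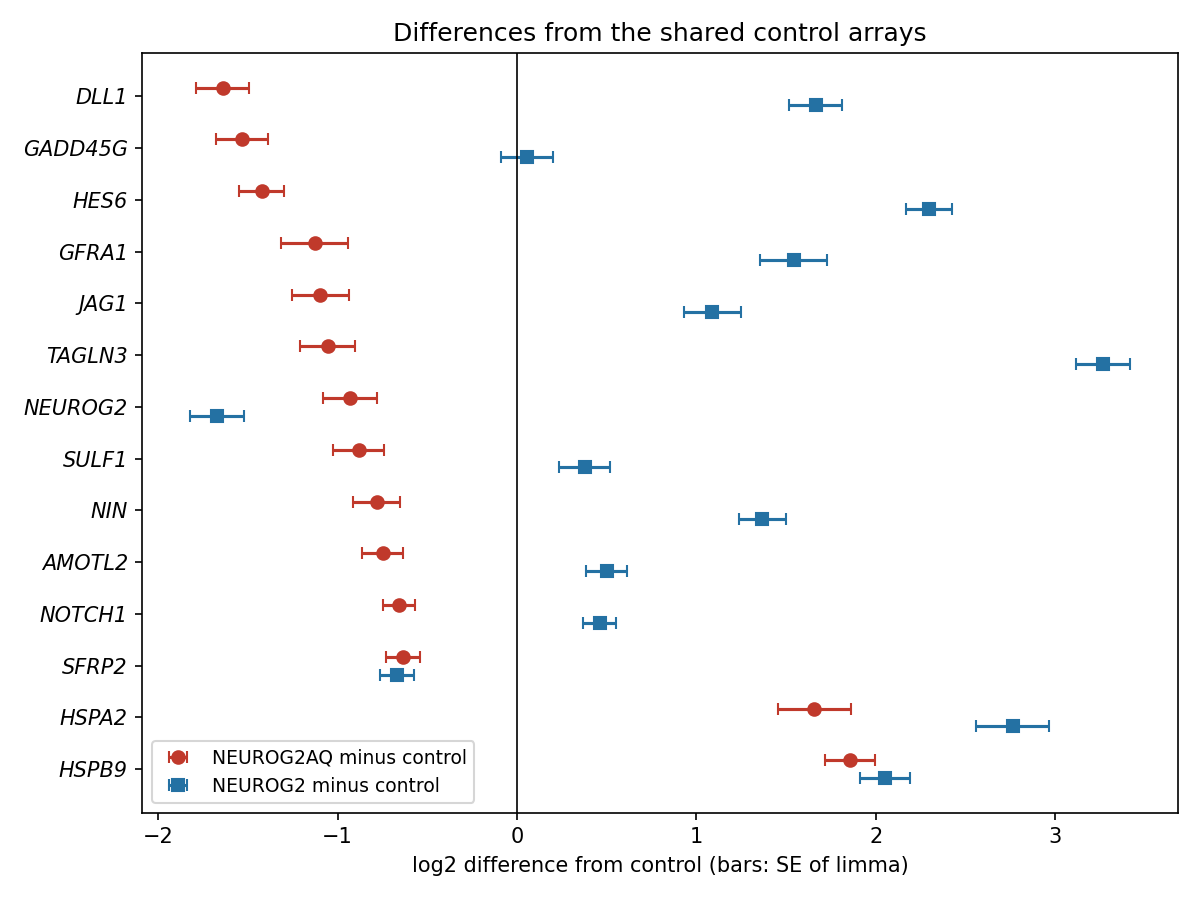
Log2 difference from control with SE for the 14 genes past the threshold, for NEUROG2AQ (red circles) and NEUROG2 (blue squares), both against the same 4 control arrays. DLL1, HES6, GFRA1, JAG1, TAGLN3, NIN, AMOTL2 and NOTCH1 lie below 0 with NEUROG2AQ and above 0 with NEUROG2; SFRP2 and NEUROG2 lie below 0 and HSPA2 and HSPB9 above 0 with both.

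The 2 plasmids were set against the same control arrays, so the differences from control share those arrays. The direct comparison of the plasmids shares the NEUROG2AQ arrays by which the 12 lower genes were chosen, which favours a lower value there, so the counts for these genes are a description. Of the 12 genes that fell with NEUROG2AQ, 10 were lower than with NEUROG2 in that direct test, 1 was higher (NEUROG2) and 1 did not pass (SFRP2). Against control, 8 of the 12 were higher with NEUROG2, 2 were lower (NEUROG2 and SFRP2) and 2 did not pass (GADD45G and SULF1). Over all genes 10.6% differed between NEUROG2 and control, 678 higher (5.21%) and 699 lower (5.37%). Over all genes 9.69% differed between NEUROG2AQ and NEUROG2, 538 higher (4.14%) and 722 lower (5.55%).

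The 5 lowest of NEUROG2AQ against NEUROG2 were ATP2A3, TAGLN3, BPIFB2, POSTN and AQP1, with fitted log2 differences from -4.59 to -4.04. AQP1 averaged 2.62 with NEUROG2AQ, below the array medians, and POSTN 3.20, just above them, so no order is read among the 5 and the differences of AQP1 and POSTN are not read as exact. ATP2A3, a calcium pump of the endoplasmic reticulum, read 3.02, 3.37, 4.07 and 3.25 in NEUROG2AQ arrays, 7.87, 8.21, 8.18 and 7.82 in NEUROG2 arrays and 4.46, 4.20, 3.82 and 3.71 in control arrays. NEUROG2AQ and control overlapped, at -0.62 (adjusted p = 0.507). BPIFB2 did not overlap between NEUROG2AQ and control and gave -0.74 (adjusted p = 0.195). POSTN, a matrix protein, gave -1.14 (adjusted p = 0.323) and AQP1, a water channel, -0.11 (adjusted p = 0.982). Of the neurofilament genes, NEFL was 5.83-fold lower and NEFM 9.48-fold lower than with NEUROG2 (adjusted p = 1.95e-07 and 3.05e-10). ID1, an inhibitor that captures E proteins, was lower with NEUROG2AQ than with NEUROG2 by a log2 difference of -2.19 ± 0.13 (SE, adjusted p = 3.67e-08). NEUROG2AQ and control arrays of ID1 did not overlap, but the difference of -0.44 did not pass (adjusted p = 0.428).

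In the other direction, the 5 highest of NEUROG2AQ against NEUROG2 were CYP26A1, PKDCCA, SNAI2, WNT4 and SGO1, with log2 differences from 2.27 to 1.70. CYP26A1, which degrades retinoic acid, read 8.17, 7.82, 8.30 and 7.48 in NEUROG2AQ arrays, 5.85, 5.84, 5.16 and 5.84 in NEUROG2 arrays and 8.06, 7.82, 8.38 and 8.23 in control arrays. NEUROG2AQ and control overlapped, at -0.18 (adjusted p = 0.914). For SNAI2, a factor of neural crest cells, and WNT4, a secreted signal, NEUROG2AQ minus control was 0.36 (adjusted p = 0.637) and -0.05 (adjusted p = 0.978). For PKDCCA and SGO1, a guardian of chromosome cohesion, it was -0.40 (adjusted p = 0.458) and 0.19 (adjusted p = 0.926).

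Genes of the progenitor state and of the cell cycle were read as lists written with results of these data known. Of 51 measured progenitor genes SFRP2 alone was lower (1.96%), beside 0.0923% of all genes, and 0 were higher. Yet 44 differences were negative and the median was -0.22. Over all genes 47.9% were negative, and over the 6070 genes with a mean signal of at least 5 it was 50.3%. Of the 51 progenitor genes 43 had such signal. Averaged over the list, NEUROG2AQ arrays lay at 6.78 to 6.93 and control arrays at 7.10 to 7.15 without overlap. SOX1 came closest to the threshold, with 6.95 ± 0.05 in NEUROG2AQ and 7.56 ± 0.12 in control arrays (SD, n = 4; log2 difference -0.61, adjusted p = 0.0569). SOX2, which maintains progenitors, read 5.53, 5.37, 4.78 and 5.21 in NEUROG2AQ arrays and 6.46, 5.93, 5.66 and 6.02 in control arrays. Its groups were apart by little, and the difference of -0.79 did not pass (adjusted p = 0.176). PAX6, a factor of progenitor patterning, gave -0.46 (adjusted p = 0.335) and SOX3 -0.31 (adjusted p = 0.615). With NEUROG2, 24 of the 51 progenitor genes were lower than in control and 0 higher, beside 5.37% of all genes lower. The list median of NEUROG2 minus control was -0.48, and its averages in NEUROG2 arrays lay at 6.56 to 6.70.

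Of 64 signalling genes 0 passed, 52 differences were negative, beside 47.9% of all genes, and the median was -0.16. SP8 was among the nearest, reading 8.61, 8.51, 8.43 and 8.13 in NEUROG2AQ arrays and 9.54, 9.31, 9.16 and 9.01 in control arrays. The groups of SP8 did not overlap (log2 difference -0.83 ± 0.15, SE, adjusted p = 0.074). With NEUROG2, 18 of the 64 signalling genes were lower than in control and 5 higher, beside 5.37% and 5.21% of all genes. Between NEUROG2AQ and control, the E protein and ID list had 0 of 31 past the threshold and a median of -0.10, with ID4 at -0.61 (adjusted p = 0.092).

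No measured gene of the cell cycle lists passed between NEUROG2AQ and control. In the G1 and S phase, DNA replication and G2 and M phase lists 0 of 27, 0 of 50 and 0 of 58 passed, with medians of 0.04, 0.08 and 0.15. Only 9 of 27, 13 of 50 and 10 of 58 differences were negative in these lists. The share was 47.9% of all genes and 50.3% of those with a mean signal of at least 5. Averaged over the G2 and M phase list, arrays lay at 7.17 to 7.43 with NEUROG2AQ, against 7.18 to 7.24 in control replicates 2 to 4 and 6.73 in control replicate 1. CCND1, cyclin D1, read 9.93, 9.91, 10.13 and 9.92 in NEUROG2AQ arrays and 9.56, 9.80, 10.19 and 10.28 in control arrays, where the control arrays spanned the NEUROG2AQ arrays (log2 difference 0.02, 95% interval -0.28 to 0.31, adjusted p = 0.992). CCNE2, cyclin E2, gave 0.18 (95% interval -0.05 to 0.40, adjusted p = 0.808). The largest differences of the G1 and S phase list were CKS2 at 0.57 (adjusted p = 0.352) and CDK6 at -0.43 (adjusted p = 0.444), each without overlap. Against NEUROG2, 13 of the 27 G1 and S genes, 28 of the 50 replication genes and 38 of the 58 G2 and M genes were higher with NEUROG2AQ, beside 1, 0 and 0 lower, where 4.14% of all genes were higher.

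Interferon and nucleic acid sensing genes, which can answer to introduced DNA, had 0 of 35 past the threshold and a median of 0.06. Of the 35 differences 10 were negative, where 47.9% of all genes were negative. Averaged over the list, arrays lay at 3.61 to 3.67 with NEUROG2AQ and 3.55 to 3.57 in control, without overlap. The mean signal was below 5 for 27 of the 35 genes. Both groups received plasmid DNA, and a response to it was not tested. RNA splicing genes had 0 of 49 past the threshold and a median of 0.00. TRIM25 had the most positive difference of the interferon list, at 0.65 without overlap (adjusted p = 0.278).

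Markers of other cells were read to check the sort. HES5, SOX3 and PAX6, which mark the neural tube, averaged 11.12, 8.73 and 9.32 in NEUROG2AQ arrays and 11.41, 9.04 and 9.78 in control arrays. In none of the 6 marker lists did a gene pass between NEUROG2AQ and control: 28 genes of neural crest, 24 of somites, 29 of blood or endothelium, 14 of notochord or floor plate, 21 of endoderm or lateral plate and 22 of surface ectoderm were measured, with medians from -0.15 for somite to 0.00 for endoderm. A mean signal of at least 5 was found for 15 of the 28 neural crest, 9 of the 22 surface ectoderm, 7 of the 29 blood or endothelium, 6 of the 14 notochord or floor plate, 2 of the 24 somite and 2 of the 21 endoderm markers. The brighter ectoderm markers included CLDN1, a tight junction protein, at 7.45 with NEUROG2AQ and 7.75 in control arrays, and KRT7, an epithelial keratin, at 7.02 and 7.36 in the same groups. Averaged over the blood and endothelium list, arrays lay at 3.05 to 3.23 with NEUROG2AQ and 3.12 to 3.66 in control. HBZ, an embryonic globin of red cells, read 5.04, 4.99, 5.95 and 4.46 in NEUROG2AQ arrays and 6.33, 7.02, 5.03 and 8.97 in control arrays, so control replicate 4 stood out and the groups overlapped (log2 difference -1.73, adjusted p = 0.534). TWIST1 and NKX3-2, both of the somite list, gave -1.21 (adjusted p = 0.611) and -1.03 (adjusted p = 0.584), with control replicate 1 the highest array of each at 6.16 and 7.74. The part of these cells in the results was not tested. DLL1, HES6, GADD45G, HSPA2 and HSPB9 kept their calls without control replicate 1 and NEUROG2AQ replicate 4 together (adjusted p at most 0.0277).

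**Figure D5:**
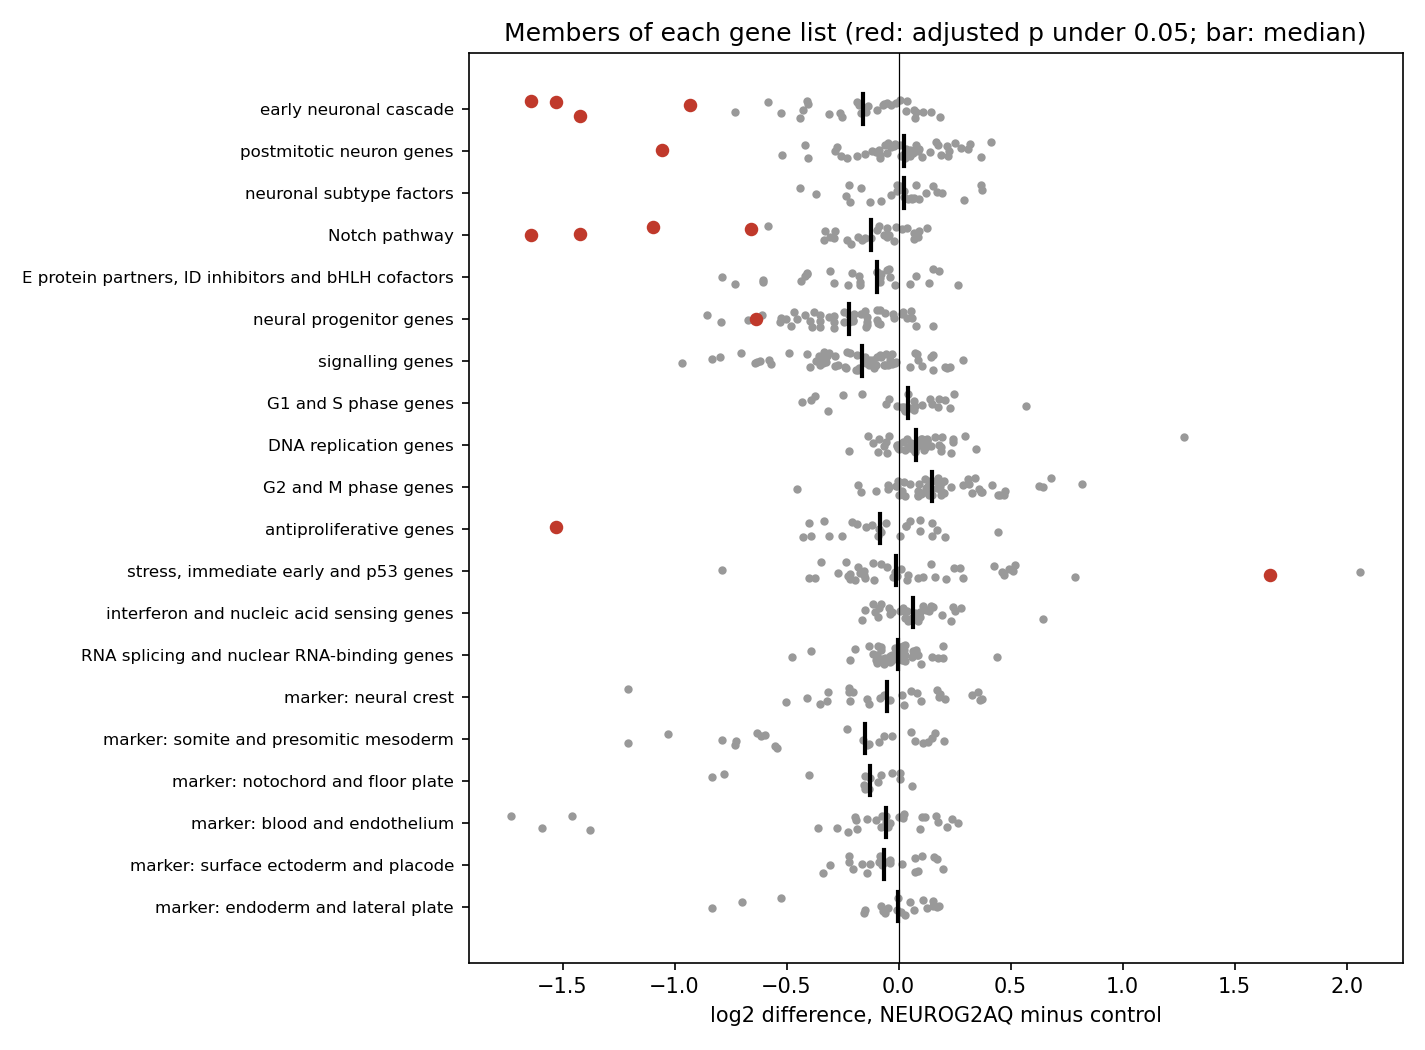
Log2 difference of NEUROG2AQ minus control for each measured member of the 14 gene lists and 6 marker lists, 1 point per gene, with the list median as a vertical bar. Red points passed an adjusted p of 0.05; they lie below 0 except HSPA2 in the stress list, and genes that stand in 2 or more lists appear in each.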

How the data were processed

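RNA of sorted cells was measured on 12 Affymetrix chicken arrays. The authors deposited 1 table of log2 signals per probe set, most likely by RMA: per the submitters' processing notes the tools were GCOS, RMA and affy, and no version is given. The log base is not in the labels; 2 was inferred from the range of values, 0.49 to 13.97. RMA compresses low signals, so differences of dim genes may be understated, which was not tested here. Array medians were 2.81 to 2.90, and no 2 columns were identical. Precision is limited by the number of arrays. Replicates are separate pools of embryos.

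Of 38535 probe sets, 37693 with chicken transcript identifiers were tested. The other 842 are 96 Affymetrix controls and 746 others, 57 of them reporters. The platform's annotation was brought to current symbols with a RefSeq gene table (GRCg7b, names only): 27166 probe sets had 1 symbol, 177 several and 10350 none here. Each gene was read at the probe set with the highest average over all 12 arrays.

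limma 3.58.1 in R 4.3.3 (lmFit, eBayes) fitted all 12 arrays with group as the only term (9 residual degrees of freedom). Two-sided p-values were adjusted by Benjamini-Hochberg across the 37693 probe sets, and 0.05 was the threshold. No set test was run. The members and lists were chosen with earlier results of these data known. Genes named are those past the threshold, up to 4 past it in each list or the 2 with the largest absolute differences, a fixed set of neuronal and progenitor genes, and the 5 highest and lowest of NEUROG2AQ against NEUROG2. LFNG, BTG2, CXCR4, DCX, SOX1, ID4, CHAC1, HSPA8, HSP90AA1, ATF3 and CCN2 were named after their values were seen. The signal limit of 5 for expressed genes was also set then. Alternatives covered normalisation, filters, variance moderation, array weights, the arrays fitted, a replicate block, probe sets per gene, the 3'/5' difference as a covariate, a fold limit and left-out arrays. Promoter motifs were not analysed here.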

Additional observations from a re-analysis of the deposited data

Results flagged for a closer look

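Within groups of 4 arrays, 14 of the 207 groups formed by 69 named probe sets held 1 array whose gap to the nearest other array exceeded Dixon's 95% critical value of 0.829 times the range. About 1 group in 20 does so by chance. Control replicate 1 was the outlying array in 6 of the 14. It read 6.09 for PKDCCA (nearest other 6.42), 5.42 for NKTR (the other controls reached 7.19) and 4.11 for KIF20B (6.37), all low, and 5.76 for NHLH1 (5.36), 2.67 for NEUROD4 (2.27) and 8.17 for CLDN1 (7.67), all high. Control replicate 4 read 5.74 for TTR, against 3.39 for the nearest other control. NEUROG2AQ replicate 2 was high for ATOH7 at 1.27, near background, and for KIF20B at 6.91, and NEUROG2 replicate 2 was also high for KIF20B at 6.08. NEUROG2AQ replicate 3 was high for PAX7 at 7.22 and for CCND1 at 10.13, and NEUROG2AQ replicate 4 was low for SGO1 at 6.28. NEUROG2 replicate 3 was low for CYP26A1 at 5.16. Of these genes none passed between NEUROG2AQ and control.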

How the results depend on the processing

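Of 25 probe sets past the threshold between NEUROG2AQ and control, 8 remained when only those arrays were fitted, 44 passed with eBayes trend and robust, 14 with probe sets averaged per gene and 14 at 2-fold or more. Single arrays left out gave 10 to 30. The other settings gave 17 to 31. With the replicate number as a block 28 passed, 19 of them shared. In their deviations from the group means, same-numbered NEUROG2AQ and control arrays correlated at -0.02, 0.01, 0.20 and -0.30. The numbers are therefore not taken as pairs. The same correlations were 0.18, 0.23, -0.02 and 0.13 between NEUROG2 and control arrays, with numbers 1, 2 and 4 best matched to their own. Between NEUROG2AQ and NEUROG2 arrays they were -0.10, 0.16, -0.11 and -0.02. With the block, NEUROG2 against control gave 2463 calls and NEUROG2AQ against NEUROG2 gave 2249. Against NEUROG2, 1442 (1 probe set per gene), 1315 (their mean) and 574 (at 2-fold) passed in place of 2286, and 1744 to 2080 with arrays left out. The share higher was 49.4% without control replicate 1 and NEUROG2AQ replicate 4, against 39.4%. NEUROG2 against control gave 1579, 1438 and 537 in place of 2515, and 1771 to 3253. Of 1305 values of single genes, 1195 kept direction and call, 86 lost the call, 5 gained it and 19 changed sign, none of the 19 past the threshold. NEUROD1 was -0.011 with loess, -0.038 with the 3'/5' covariate and -0.062 to 0.069 with single arrays left out. With single arrays left out AQP1 was -0.33 to 0.25, NEUROD4 -0.00484 to 0.15, NEFL -0.25 to 0.042, SGO1 -0.055 to 0.31, WNT4 -0.10 to 0.022 and CCND1 -0.11 to 0.12. With array weights WNT4 was 0.0018 and CCND1 -0.031, and with the covariate CCND1 was -0.016. Without control replicate 1 and NEUROG2AQ replicate 4 ATOH7 was 0.00716, WNT4 0.050 and CCND1 -0.098. The cause of these moves was not tested, beyond fewer arrays or probe sets entering a fit.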
